A study of Mus musculus with 8 samples.

Results

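The non-additive effect of losing both estrogen-related receptors was measured in RNA-Seq libraries of whole mouse hearts as an interaction on the log2 scale. It is the change produced by ERRγ loss in hearts without ERRα, αKOγKO minus αKOγWT, minus the change produced by ERRγ loss in hearts with 1 ERRα copy, αHetγKO minus αHetγWT. An interaction of 0 means that the single changes multiply in αKOγKO. Of 18656 genes in the tables, 15076 had enough reads to be tested, and 2640 passed an adjusted p of 0.05 for the interaction. Among these, 885 genes needed both losses, meaning that αKOγKO differed from αHetγWT by at least 2-fold in the direction of the interaction while each single loss moved the gene by less than 1.5-fold. Another 10 genes were ones whose single losses simply added.

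Hearts of 16-day-old C57BL/6 mice were compared in 4 genotypes with 2 libraries each, and each library was made from RNA pooled from several hearts. αHetγWT hearts carried 1 functional ERRα allele and intact ERRγ, and were the reference, so that no library here is wild-type for ERRα. αHetγKO hearts kept that ERRα allele and lacked ERRγ, αKOγWT hearts were ERRα-/- with intact ERRγ, and αKOγKO hearts lacked both. ERRα was deleted in the whole animal, whereas the floxed ERRγ allele was removed by Cre under the cardiomyocyte promoter Myh6, which leaves ERRγ in other heart cells; whether γWT hearts carried Cre was not given in the sources used here. αKOγKO mice develop a lethal dilated cardiomyopathy with heart failure early in life. Their reported median life span is shorter than the 16 days sampled here. The double loss is therefore measured in diseased hearts, from mice that had lived past that median.

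ERRα and ERRγ are orphan nuclear receptors that bind an extended half-site in DNA as single molecules or dimers and, with the coactivators PGC-1α and PGC-1β, drive genes of mitochondrial respiration, the tricarboxylic acid (TCA) cycle and fatty acid oxidation. Both are abundant in the heart, whose beating depends on mitochondrial ATP, and their sites overlap widely. An interaction marks genes whose change in αKOγKO departs from the product of the single changes. Whether such a departure comes from the receptors themselves or from the heart failure of αKOγKO mice was not tested.

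The half-site was searched as the letters TNAAGGTCA on either strand, from 250 bases before to 50 bases after each transcription start in RefSeq promoters (GRCm38.p6), and 11870 of the tested genes had such a promoter. It was found for 111 of them (0.935%). Among genes that needed both losses, it was found for 5 of 492 that fell (1.02%) and 2 of 210 that rose (0.952%). Both classes were near the share over all genes. A match here is only a match of letters. For complex II to V genes the share was 2 of 33 (6.06%), for complex I genes 1 of 33 (3.03%), for TCA cycle genes 0 of 22 and for fatty acid oxidation genes 0 of 24. Windows around 4 of the 5 matches in genes that needed both losses and fell are given 5′ to 3′ on the strand of the gene, with the match in capitals, because these genes belong to the respiratory chain, to the contractile apparatus and to conduction. They were chosen after the values were seen; the fifth match belonged to Msrb2, and those among the rises to Igf1r and Lmna. The 4 windows lie at chr2:73911345-73911403 on the minus strand for Atp5g3 (a ring subunit of ATP synthase), chr16:37654392-37654450 on the minus strand for Ndufb4 (complex I), chr2:155611172-155611230 on the plus strand for Myh7b (a myosin heavy chain) and chr10:79716441-79716499 on the plus strand for Hcn2 (a pacemaker channel), all upstream of the start.
Atp5g3: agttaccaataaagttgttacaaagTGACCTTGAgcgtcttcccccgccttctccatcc
Ndufb4: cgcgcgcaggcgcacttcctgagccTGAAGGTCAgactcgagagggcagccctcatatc
Myh7b: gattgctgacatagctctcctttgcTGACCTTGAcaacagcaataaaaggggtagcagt
Hcn2: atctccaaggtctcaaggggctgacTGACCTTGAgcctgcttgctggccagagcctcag

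The 8 libraries held 28172814 to 36796591 uniquely assigned reads over the tested genes. Levels below are RPKM, reads scaled to transcript length and to all counted reads, given for replicates 1 and 2 in that order, and changes are log2 values from edgeR ± their standard error with p-values adjusted by Benjamini-Hochberg over all tested genes. Esrra, the targeted ERRα gene, stood at 44.9 and 45.8 RPKM for αHetγWT, 46.7 and 45.8 for αHetγKO, 1.68 and 1.21 for αKOγWT, and 1.42 and 1.64 for αKOγKO, as the genotype labels say. Esrrg read 6.83 and 6.44 RPKM for αHetγWT, 7.75 and 8.23 for αHetγKO, 8.23 and 7.23 for αKOγWT, and 15.2 and 17.6 for αKOγKO; a count over the whole gene does not check a floxed exon, and the ERRγ labels are therefore unchecked. The αKOγKO libraries were the most variable, with limma quality weights of 0.454 and 0.452 against 1 to 1.62 for the others, and they differed from each other in many genes given below. Xist, transcribed from the inactive X chromosome of females, was at 10.8 RPKM in αKOγKO replicate 1, which marks RNA from female mice, and at 0.00913 to 0.0249 in the other libraries. Sex was thus not balanced between the genotypes, and its part in the results was not tested. Of genes that needed both losses, 14 of the 277 higher and 17 of the 608 lower ones lay on the X chromosome. Fos was at 203 RPKM in αKOγKO replicate 2 and 6.24 in replicate 1, against 1.71 to 4.9 elsewhere.

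The interaction was past the threshold for 17.5% of the tested genes, with 1020 higher (6.77%) and 1620 lower (10.7%) than the sum of the single changes. αKOγKO against αHetγWT was called for 42.2% of genes, with 3127 higher (20.7%) and 3237 lower (21.5%). Far fewer genes were called in the single losses by edgeR: 1.23% in αKOγWT (112 higher, 0.743%, and 74 lower, 0.491%) and 0.00663% in αHetγKO (1 higher, 0 lower). Even so, 2181 and 748 genes had an unadjusted p under 0.05 by edgeR in these 2 comparisons. In αKOγWT, DESeq2 called 244 higher and 181 lower, limma voom with sample weights 220 and 177, and limma on log2(RPKM + 1) 96 and 64. In αHetγKO, DESeq2 called 23 higher and 18 lower, limma voom with sample weights 13 and 15, and limma on log2(RPKM + 1) 1 and 0. All 3 comparisons share the αHetγWT libraries. They also share the edgeR estimate of the spread, which comes from all 8 libraries, the more variable αKOγKO ones included. On log2(RPKM + 1) values scaled to total reads the split turned, with 1644 higher and 1227 lower by limma, 57.3% against 38.6% higher in the edgeR fit. Without αKOγKO replicate 1 there were 1226 higher and 1807 lower interactions, and without replicate 2 there were 1653 and 2216; leaving out 1 library of another genotype gave between 336 (without αHetγKO replicate 1) and 679 higher, and between 927 (without αHetγKO replicate 1) and 1294 lower.

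Of 997 genes at least 2-fold lower in αKOγKO, 687 (68.9%) had an interaction of the same sign, their median αKOγKO change was -1.45 and their median interaction -1.17, and their median single changes were -0.19 in αKOγWT and -0.10 in αHetγKO. Of 1021 genes at least 2-fold higher, 343 (33.6%) had an interaction of the same sign, with a median αKOγKO change of 1.6, a median interaction of 0.93, and single changes of 0.35 and 0.27. The higher genes were measured less precisely, with a median standard error of the interaction of 0.42 against 0.21 for the falls, and the difference between the shares was not tested. Both αKOγKO libraries lay beyond the other 6 in all 885 genes that needed both losses, against 34.8% of tested genes above and 18.3% below, and this nearly follows from how the class is defined. For 973 of the 2018 genes changed at least 2-fold, the data placed the gene neither past the interaction threshold nor within a 1.5-fold interval of additivity.

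**Figure D1:**
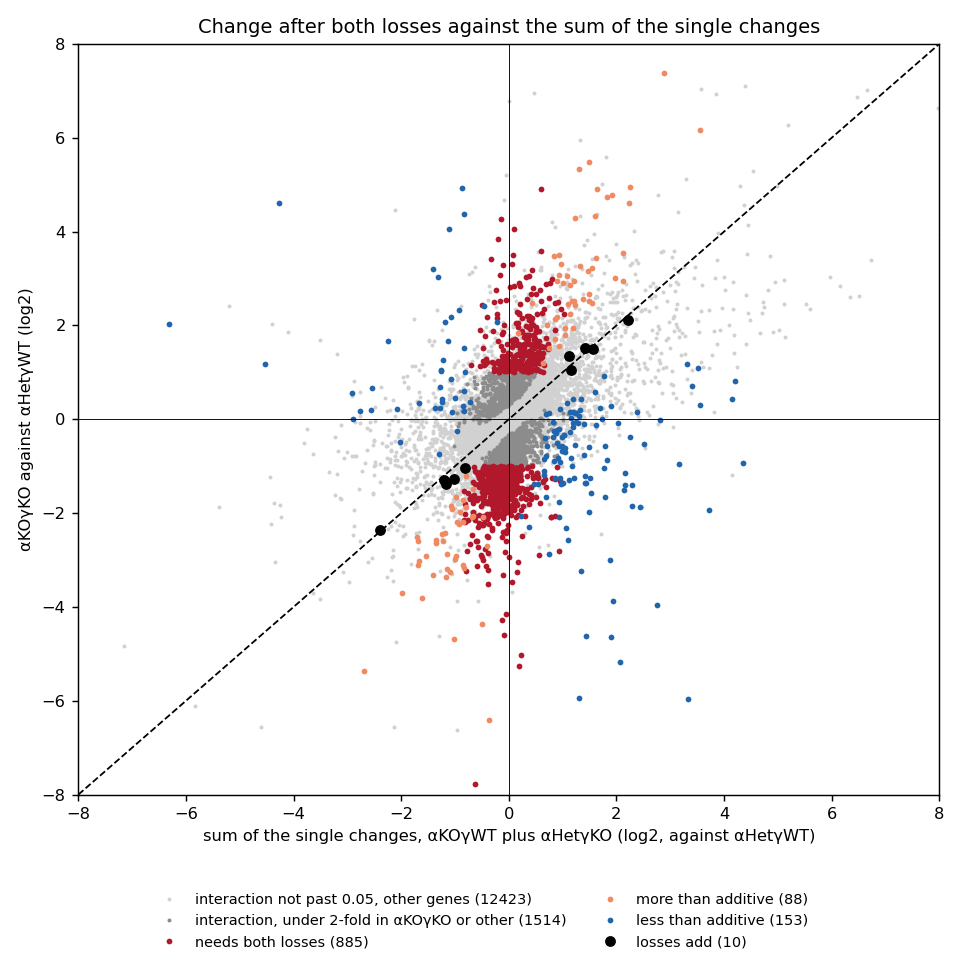
Change of each tested gene in αKOγKO against αHetγWT (y axis, log2) plotted on the sum of its changes in αKOγWT and αHetγKO (x axis, log2), 1 point a gene, coloured by class, with 11 genes outside the axes. On the dashed line the single changes add; the 885 genes that needed both losses stand in a vertical band near 0 on the x axis, and the 10 additive genes lie along the line.

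Genes of the respiratory chain fell in αKOγKO, and none was called in a single loss by edgeR. All 37 complex I genes had a lower interaction, against 10.7% of all tested genes, and 32 needed both losses, against 4.03% of all genes in that class. Counts of lower interactions in the lists below stand beside the same 10.7%, and counts of higher ones beside 6.77%. Ndufa5, an accessory subunit of complex I, stood at 667 and 657 RPKM for αHetγWT, 617 and 612 for αHetγKO, 581 and 609 for αKOγWT, and 178 and 168 for αKOγKO. The 3 genotypes that kept a receptor lay close together, and both αKOγKO libraries were far below them. Its αKOγKO change was -2.06 ± 0.07 and its interaction -1.79 ± 0.10 (edgeR adjusted p = 3.3e-05), with -0.15 ± 0.07 in αKOγWT and -0.12 ± 0.07 in αHetγKO. Ndufa9 and Ndufa10, further accessory subunits, had interactions of -1.61 ± 0.10 and -1.71 ± 0.10. The other 5 complex I genes, named after their values were seen, were Ndufa2, Ndufa7, Ndufa11, Ndufb6 and Ndufv3, whose αKOγKO changes of -0.95 to -0.40 fell short of 2-fold. Ndufb4, whose promoter window is printed above, had an interaction of -1.16 ± 0.10.

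Of 42 genes of complexes II to V, 41 had a lower interaction and 38 needed both losses. Uqcr11, a small subunit of complex III, stood at 1286 and 1323 RPKM for αHetγWT, 1368 and 1312 for αHetγKO, 1312 and 1300 for αKOγWT, and 359 and 335 for αKOγKO. The 6 libraries of the other genotypes did not separate, and αKOγKO was 4.09-fold below αHetγWT. The interaction was -2.06 ± 0.10 (edgeR adjusted p = 2.7e-05), as large as the whole αKOγKO change of -2.03 ± 0.07. Sdha, the catalytic subunit of complex II, and Uqcrc1, a core subunit of complex III, had interactions of -1.63 ± 0.10 and -1.89 ± 0.11. Atp5g3 stood at 2820 and 2850 RPKM for αHetγWT and at 987 and 1026 for αKOγKO, with an interaction of -1.66 ± 0.11. Its sister gene Atp5g2, which encodes the same mature ATP synthase subunit from another locus, was the single gene of the list without an interaction call, at -0.28 ± 0.10 (edgeR adjusted p = 0.082). Cox6a1 and Cox8a, cytochrome oxidase subunits, had smaller interactions of -0.61 ± 0.15 and -0.57 ± 0.13.

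Cardiomyocytes and other cells are mixed in these samples, and fewer cells of a type and less RNA per cell cannot be told apart. The summed RPKM of 10 cardiomyocyte markers was 39519 to 43459 in the 6 libraries with a receptor and 30192 and 35121 for αKOγKO, with 3 of 10 markers lower by interaction (6 without αKOγKO replicate 2, and 3 higher without replicate 1). Myh6, the main ventricular myosin of the adult mouse, had an interaction of -0.35 ± 0.13 (edgeR adjusted p = 0.11) and αKOγKO levels of 6018 and 6750 RPKM against 7424 to 8164 in the other genotypes. The marker sum fell by less than the respiratory genes, whose αKOγKO medians were -1.45 for complex I and -1.51 for complexes II to V; the part of cell composition in these results was not tested.

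The TCA cycle and pyruvate entry showed the same pattern in 22 of 24 genes, and 23 had a lower interaction. Fh1, fumarase, read 410 and 412 RPKM for αHetγWT, 405 and 393 for αHetγKO, 408 and 388 for αKOγWT, and 118 and 115 for αKOγKO. No library of the first 3 genotypes came near the αKOγKO values, and the replicates were close in all genotypes. Its interaction was -1.85 ± 0.09 (edgeR adjusted p = 2.7e-05). Mdh2, mitochondrial malate dehydrogenase, and Cs, citrate synthase, had interactions of -1.86 ± 0.10 and -1.63 ± 0.10. The 2 exceptions, named after their values were seen, were both pyruvate dehydrogenase kinases, which turn pyruvate entry off. Another kinase of this family in the list, Pdk2, was among the 22 genes that needed both losses and fell. Pdk1 had a higher interaction of 0.52 ± 0.09. Pdk4 was at 0.54 in αKOγWT, 0.47 in αHetγKO and -0.02 in αKOγKO, with an interaction of -1.04 ± 0.17 (edgeR adjusted p = 0.0038).

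In fatty acid oxidation, 25 of 28 genes had a lower interaction and 16 needed both losses. Fewer had a lower call without any 1 library of another genotype than αKOγKO, where the median interaction was -1.23 to -1.15. Acads, short-chain acyl-CoA dehydrogenase, stood at 139 and 147 RPKM for αHetγWT, 146 and 146 for αHetγKO, 153 and 144 for αKOγWT, and 47 and 47.8 for αKOγKO. Its 6 other libraries fell within a narrow band that the αKOγKO libraries did not approach. The interaction was -1.79 ± 0.09 (edgeR adjusted p = 2.8e-05). Echs1, enoyl-CoA hydratase, and Etfa, which passes electrons from acyl-CoA dehydrogenases to the respiratory chain, had interactions of -1.63 ± 0.10 and -1.70 ± 0.11. The list was less uniform at its entry steps: Cpt1a, the liver-type carnitine palmitoyltransferase, had an interaction of 0.04 ± 0.10, Acsl1, which activates fatty acids, -0.31 ± 0.18, and the carnitine carrier Slc25a20 -0.37 ± 0.16, and none of these 3 was called. Cpt1b, the muscle-type enzyme of the same step, had an interaction of -0.95 ± 0.17 but an αKOγKO change of -0.85, short of 2-fold.

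**Figure D2:**
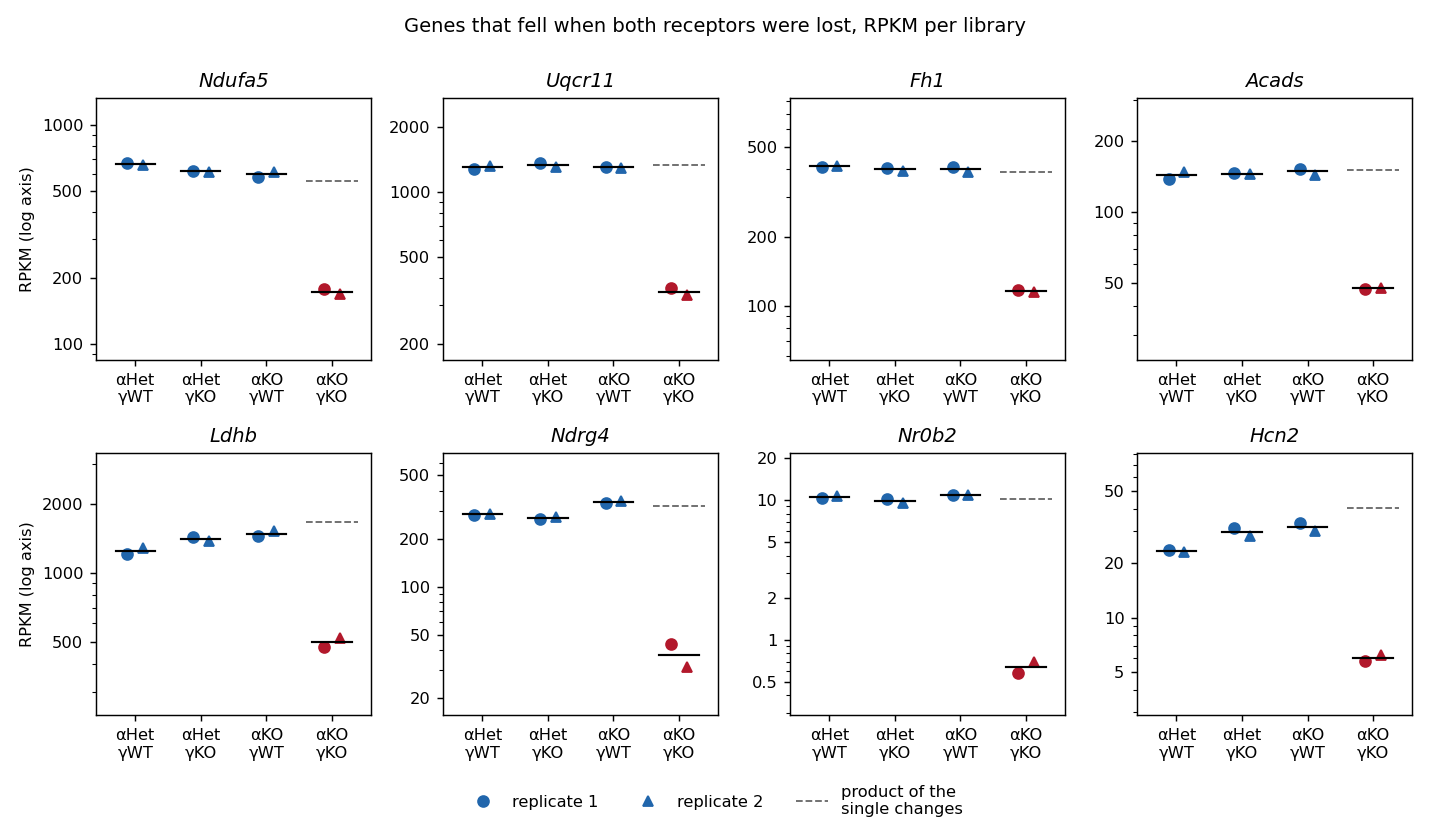
RPKM (y axis, log scale) of 8 genes in the 4 genotypes (x axis), with a circle for replicate 1, a triangle for replicate 2, a bar for the mean and a dashed line at the level that the product of the single changes would give. In each panel both αKOγKO libraries lie below the dashed line and below the other 6 libraries; Uqcr11 falls to 359 and 335 RPKM.

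Median interactions were nearer to 0 for mitochondrial genes outside energy metabolism. Of 76 mitochondrial ribosome genes, 55 had a lower interaction but 12 needed both losses, with a median interaction of -0.64. Fewer of them were called without any 1 library of another genotype than αKOγKO, where the median interaction was -0.67 to -0.59. Mrps35, a small-subunit protein, was at 86.4 and 85.1 RPKM for αHetγWT and at 23.1 and 23.7 for αKOγKO, with an interaction of -1.93 ± 0.09, and Mrpl42 and Mrpl12 followed at -1.48 ± 0.12 and -1.22 ± 0.09. Of 20 genes of mitochondrial dynamics and biogenesis, 11 had a lower and 3 a higher interaction. The fusion gene Mfn1 was more than additive, since αKOγWT already changed by -0.62 ± 0.07, and αKOγKO changed by -2.08 ± 0.07. All 3 higher interactions in that list belonged to the PGC-1 coactivators themselves: Ppargc1a (1.03 ± 0.16), Pprc1 (1.38 ± 0.15) and Ppargc1b (0.68 ± 0.17).

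Of 15 genes of energy transfer, 9 had a lower interaction, 3 of which needed both losses, and 2 a higher one (0 or 1 without any 1 library of another genotype than αKOγKO). Ckmt2, the mitochondrial creatine kinase of muscle, stood at 1363 and 1281 RPKM for αHetγWT, 1401 and 1325 for αHetγKO, 998 and 841 for αKOγWT, and 215 and 143 for αKOγKO. αKOγWT lay between the reference and αKOγKO, and its change of -0.52 ± 0.17 was not called. The interaction was -2.51 ± 0.24 (edgeR adjusted p = 0.00027). Ak1, adenylate kinase, and Vdac1, the outer-membrane channel, needed both losses with interactions of -1.61 ± 0.15 and -1.01 ± 0.10. Among antioxidant genes 7 of 21 were lower and 3 higher (1 without αHetγWT or αHetγKO replicate 2), led by the mitochondrial superoxide dismutase Sod2 at -1.60 ± 0.10 and the peroxiredoxins Prdx5 (-1.18 ± 0.11) and Prdx2 (-1.0 ± 0.10).

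Contraction and conduction genes were a mixed group. Myh7b, whose promoter window is printed above, stood at 37 and 42.8 RPKM for αHetγWT, 34.9 and 34 for αHetγKO, 61.7 and 49.9 for αKOγWT, and 15.5 and 12.2 for αKOγKO, with an interaction of -1.91 ± 0.20. Tnni3, cardiac troponin I, was at 5413 and 5534 RPKM for αHetγWT and 1824 and 2033 for αKOγKO, with an interaction of -1.45 ± 0.12. It was 1 of 5 lower interactions among 23 sarcomere genes, and that count was 1 or 2 without any 1 library of the other genotypes but αKOγWT replicate 1, and 8 or 10 without αKOγKO replicate 1 or 2. In calcium handling 5 of 20 genes were lower, and 8 without αKOγKO replicate 2. The pump Atp2a2 and the channel subunit Cacna2d1 had interactions of -0.72 ± 0.11 and -0.60 ± 0.10. Hrc, which binds calcium in the sarcoplasmic reticulum, was more than additive, with -0.78 ± 0.10 in αKOγWT, -0.07 ± 0.10 in αHetγKO and -2.18 ± 0.10 in αKOγKO.

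Of 25 ion channel and conduction genes, 12 had a lower interaction and 13 none. The lower count was 6 or 7 without any 1 library of the other genotypes but αKOγWT replicate 2, and without αKOγKO replicate 1 there were 3 higher ones. Hcn2 stood at 23.6 and 23 RPKM for αHetγWT, 31.3 and 28.2 for αHetγKO, 33.4 and 30.1 for αKOγWT, and 5.77 and 6.24 for αKOγKO. Each single-loss library was above both reference libraries, and both αKOγKO libraries were below all 6. Its interaction was -2.87 ± 0.12 (edgeR adjusted p = 2.2e-05), with a change of 0.45 ± 0.08 in αKOγWT that was called (edgeR adjusted p = 0.046) and one of 0.34 ± 0.08 in αHetγKO that was not. Kcnip2, a partner of Kv4 channels, was also lower by interaction (-1.27 ± 0.18).

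Among the 10 largest lower interactions of genes that needed both losses, several have roles outside metabolism. Nr0b2, the corepressor SHP that is known in liver for bile acid control, stood at 10.4 and 10.6 RPKM for αHetγWT, 10.2 and 9.51 for αHetγKO, 10.8 and 10.8 for αKOγWT, and 0.576 and 0.698 for αKOγKO. Either receptor was accompanied by the reference level, and the αKOγKO change was -4.16 ± 0.17 with an interaction of -4.11 ± 0.21 (edgeR adjusted p = 2.7e-05). Ndrg4, which is needed for heart growth in zebrafish, stood at 281 and 287 RPKM for αHetγWT, 266 and 272 for αHetγKO, 336 and 344 for αKOγWT, and 43.6 and 31.2 for αKOγKO. This was the most abundant of the 10, with an interaction of -3.22 ± 0.20. Lrrc15, a leucine-rich repeat membrane protein, and Epn3, an epsin of endocytosis, had interactions of -4.51 ± 0.24 and -4.16 ± 0.45. The uncharacterised 2210407C18Rik had the largest at -5.25 ± 0.62, but its αKOγWT libraries read 24.7 and 9.69 RPKM. Tmem35a, Tmem74b, A730020M07Rik, Klhl33 and Pcp4 had interactions between -3.73 and -3.13. Pcp4, a calmodulin-binding peptide of Purkinje fibres, read 0.0812 and 0.733 RPKM for αKOγKO, and its call was lost without any 1 of the αHetγWT or αHetγKO libraries (highest adjusted p by edgeR 0.068).

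The 277 genes that needed both losses and rose, 1.84% of those tested, had a median interaction of 1.22 and a median αKOγKO change of 1.4. The class allows single changes under 1.5-fold. By edgeR, 5 of the 277 were called in αKOγWT, as were 10 of the 608 that needed both losses and fell. Slc16a3, the lactate exporter MCT4, stood at 1.29 and 1.45 RPKM for αHetγWT, 1.65 and 1.71 for αHetγKO, 1.47 and 1.93 for αKOγWT, and 54 and 35.8 for αKOγKO. The single changes multiplied would have given 1.51-fold, and αKOγKO was 30.1-fold above αHetγWT. Its interaction was 4.32 ± 0.33 (edgeR adjusted p = 7.7e-05). Ldhb, the heart form of lactate dehydrogenase, moved the other way, from 1212 and 1278 RPKM for αHetγWT to 475 and 517 for αKOγKO with an interaction of -1.87 ± 0.11. Ldha, the muscle form, named after its values were seen, had an interaction of 0.68 ± 0.10 (edgeR adjusted p = 0.0024).

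Of 19 TGF-β and YAP target genes, 10 had a higher interaction. Ccn2, connective tissue growth factor, stood at 46.6 and 60.6 RPKM for αHetγWT, 61.7 and 76.3 for αHetγKO, 57.9 and 69.8 for αKOγWT, and 749 and 651 for αKOγKO. αKOγWT overlapped the reference, both αHetγKO libraries lay just above it, and αKOγKO was 12-fold above αHetγWT. The interaction was 2.98 ± 0.23 (edgeR adjusted p = 7.7e-05). Ccn5, a CCN protein that lacks the C-terminal domain of Ccn2, was at 1.15 to 1.36 RPKM in the other 6 libraries and at 44 and 11.7 for αKOγKO, with an interaction of 4.43 ± 0.84. Their relative Ccn4 belonged to the additive genes, and Ccn3 had an interaction of -0.07 ± 0.28 and an αKOγKO change of 0.05. Smad7 and Skil, inhibitors of TGF-β signalling, had interactions of 1.12 ± 0.16 and 0.72 ± 0.12. Further large rises came from outside that list. Adamts20, a metalloprotease, was at 0.0912 to 0.196 RPKM in the other 6 libraries and at 4.04 and 1.03 for αKOγKO, and its interaction of 3.96 ± 0.94 lost its call without any 1 of those 6 and in both limma fits (highest adjusted p by edgeR 0.101). Gdf6, a bone morphogenetic protein, P2rx1, an ATP-gated channel, Plcxd2 and Nrip3 had interactions of 3.41 ± 0.58, 4.03 ± 0.76, 3.74 ± 0.71 and 3.39 ± 0.74, and Nrip3 lost its call without αHetγWT replicate 2, αHetγKO replicate 2 or αKOγWT replicate 2 (highest adjusted p by edgeR 0.10).

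The list for heart failure and fetal genes gave 11 higher interactions in 19 tested, and the other 8 were not called by edgeR. Not all members rose: the lowest interaction was -2.28. αKOγKO was called higher than αHetγWT for 14 of the 19 and lower for 1. In limma voom with sample weights and in the fit with a replicate block, 1 gene had a lower interaction call. Nppa, atrial natriuretic peptide, stood at 2313 and 2621 RPKM for αHetγWT, 3367 and 3176 for αHetγKO, 2304 and 4242 for αKOγWT, and 22181 and 20369 for αKOγKO. The single-loss libraries reached at most 4242 RPKM, and its interaction was 2.18 ± 0.34 (edgeR adjusted p = 0.0031). Fhl1, a LIM protein of the stretched sarcomere, was at 48.3 to 57.8 RPKM in the other 6 libraries and at 544 and 273 for αKOγKO, with an interaction of 2.71 ± 0.37. Acta1, skeletal α-actin, was more than additive: 64.1 and 49.3 RPKM for αHetγWT, 166 and 125 for αHetγKO, 92.6 and 119 for αKOγWT, and 2608 and 1210 for αKOγKO. Its interaction was 2.70 ± 0.46 on top of single changes of 0.91 ± 0.33 and 1.35 ± 0.33, neither of which was called. Thbs4, thrombospondin 4, had single changes of 1.09 ± 0.19 and 1.14 ± 0.18 and an αKOγKO change of 4.60 ± 0.18. Flnc, filamin C, had an interaction of 1.09 ± 0.13 with an αKOγKO change of 0.78 ± 0.09.

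Nppa is also an atrial marker. The summed RPKM of 8 atrial markers was 4385 to 7289 in the 6 other libraries and 25550 and 25006 for αKOγKO, of which Nppa made up most. Of the 8, 3 had a higher interaction, Nppa, Bmp10 (1.4 ± 0.27) and Dkk3 (0.87 ± 0.17), while the atrial myosin light chains Myl4 and Myl7 had interactions of 0.51 ± 0.23 and 0.25 ± 0.30 that were not called. The part of atrial tissue in the dissected hearts was not tested. Dkk3 lost its call without αHetγWT replicate 2 or αHetγKO replicate 1 (highest adjusted p by edgeR 0.052).

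**Figure D3:**
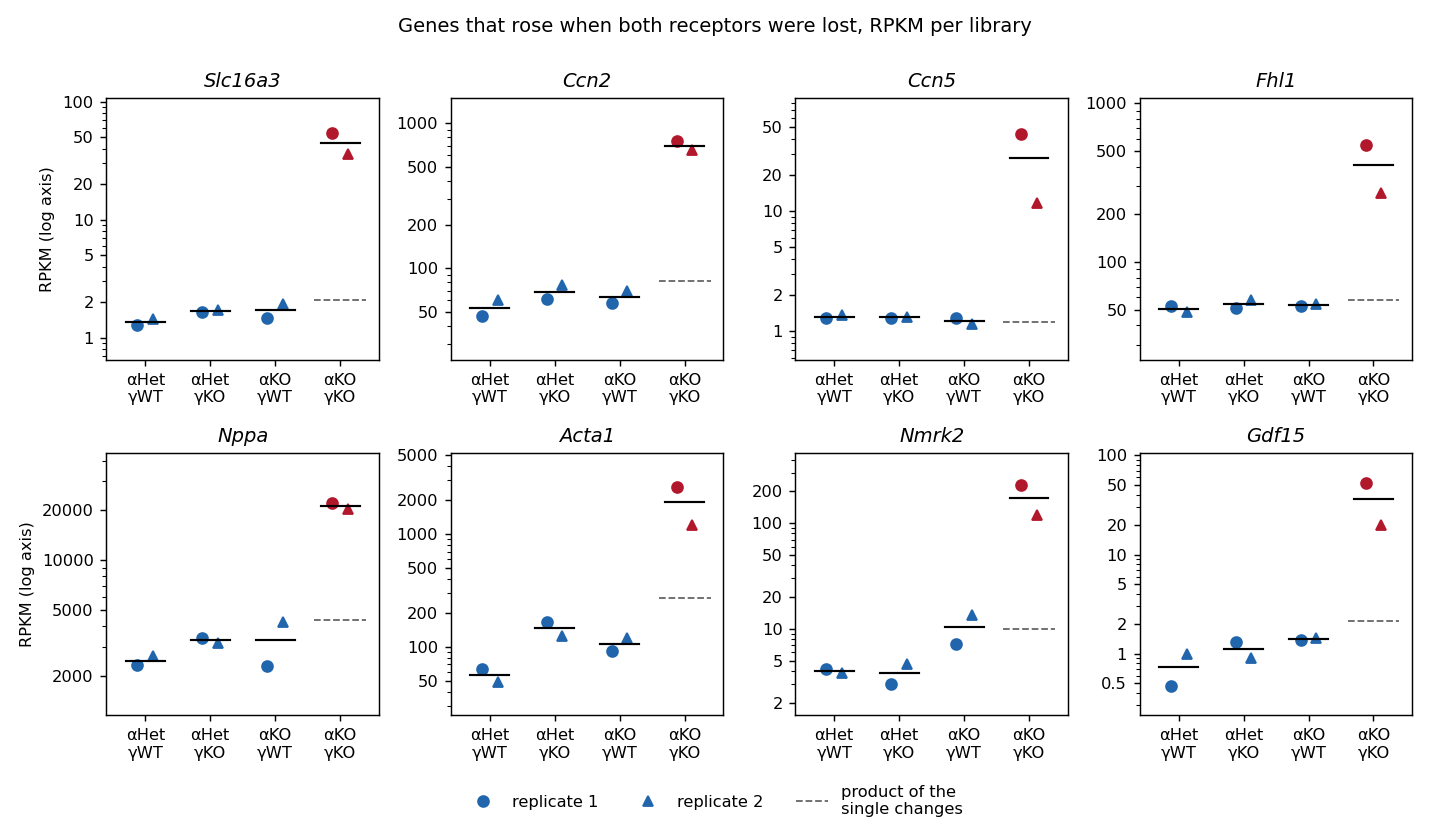
RPKM (y axis, log scale) of 8 genes in the 4 genotypes (x axis), drawn with a circle for replicate 1, a triangle for replicate 2, a bar for the mean and a dashed line at the product of the single changes. Slc16a3, Ccn2, Ccn5, Fhl1 and Nppa needed both losses, and Acta1, Nmrk2 and Gdf15 were more than additive; the αKOγKO replicates of Ccn5 differ, at 44 and 11.7 RPKM.

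Another 88 genes were more than additive, 48 of them higher (0.318%) and 40 lower (0.265%). In these a single loss moved the gene by at least 1.5-fold and the interaction had the sign of the summed single changes, which may themselves be opposite. Nmrk2, a nicotinamide riboside kinase that makes NAD precursors in muscle, stood at 4.18 and 3.83 RPKM for αHetγWT, 3.03 and 4.66 for αHetγKO, 7.16 and 13.5 for αKOγWT, and 230 and 119 for αKOγKO. Both αKOγWT libraries were above the reference, but the change of 1.38 ± 0.40 was not called, and the interaction was 4.02 ± 0.55 (edgeR adjusted p = 0.0018). Gdf15, a stress-induced hormone of the TGF-β superfamily, read 0.475 and 0.998 RPKM for αHetγWT, 1.31 and 0.906 for αHetγKO, 1.38 and 1.44 for αKOγWT, and 52.8 and 19.7 for αKOγKO. Its single changes of 0.93 ± 0.64 and 0.55 ± 0.66 would multiply to 2.79-fold, and αKOγKO was 44.9-fold above αHetγWT. The interaction of 4.01 ± 0.82 (edgeR adjusted p = 0.013) lost its call without αHetγWT replicate 2 or αHetγKO replicate 2 and in limma voom with sample weights. Bex1, a brain-expressed X-linked gene, and the uncharacterised 4833412C05Rik had interactions of 3.27 ± 0.54 and 4.49 ± 0.74, the latter not called without either αHetγWT library (highest adjusted p by edgeR 0.0758). Ush1c, harmonin, was the 1 fall among these 5, with -1.23 ± 0.36 in αHetγKO, 0.73 ± 0.34 in αKOγWT and -4.35 ± 0.46 in αKOγKO.

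Genes of the integrated stress response and of serine and folate metabolism gave 11 higher interactions and 1 lower in 29 tested, and the higher count was 4 or 5 without any 1 library of the other genotypes and 17 without αKOγKO replicate 2. Psat1, phosphoserine aminotransferase, was at 2.33 and 2.29 RPKM for αHetγWT and 24.1 and 21 for αKOγKO, with an interaction of 1.69 ± 0.23. Ppp1r15a, which dephosphorylates eIF2α, had an interaction of 1.14 ± 0.16. Mthfd2, a mitochondrial folate enzyme, stood at 1.95 to 2.5 RPKM in the other 6 libraries and at 33.2 and 8.53 for αKOγKO, and Asns, asparagine synthetase, at 1.07 to 2.39 and at 19.2 and 5.81. Replicate 1 of αKOγKO was well above replicate 2 for both genes. Their interactions of 3.23 ± 0.77 and 2.99 ± 0.80 (edgeR adjusted p = 0.023 and 0.037) were lost in most fits that left out a library of another genotype. Atf3, a stress transcription factor, read 10.2 and 140 RPKM for αKOγKO, and its call (edgeR adjusted p = 0.045) was lost without any 1 of the 6 other libraries. Only 2 of 20 immediate-early genes, Atf3 and Ier3 (0.90 ± 0.15), were called, while DESeq2 called 8, the fit with a replicate block 5, and the fit without αKOγKO replicate 1 called 16.

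The extracellular matrix list gave more αKOγKO calls than interaction calls. αKOγKO was higher than αHetγWT for 30 of 38 genes, and 9 had a higher interaction, against 20.7% and 6.77% of all tested genes. Without any 1 library of the other genotypes that count was 2 to 4, and without αKOγKO replicate 2 it was 28. Col8a2, a short-chain collagen, stood at 0.483 and 0.5 RPKM for αHetγWT, 0.418 and 0.495 for αHetγKO, 0.692 and 0.655 for αKOγWT, and 3.81 and 2.51 for αKOγKO, with an interaction of 2.22 ± 0.34 (edgeR adjusted p = 0.0031). Cilp, a matrix protein of cartilage and injured heart, and Col12a1 had interactions of 2.56 ± 0.43 and 2.63 ± 0.54, and Col12a1 lost its call without αHetγWT replicate 1 or αHetγKO replicate 1 (highest adjusted p by edgeR 0.061). Col1a1, the main fibrillar collagen, named after its values were seen, had single changes of 0.43 and 0.36, an αKOγKO change of 1.13 and an interaction of 0.34 ± 0.23. A higher interaction was found for 8.33% of fibroblast markers and 7.14% of macrophage markers, near the 6.77% over all tested genes. Of 12 fibroblast markers 1 was past the interaction threshold, Tcf21 (1.03 ± 0.19), and 5 were higher without αKOγKO replicate 2; their summed level was 1569 to 1777 RPKM in the other 6 libraries and 2496 and 2053 for αKOγKO. Macrophage markers summed to 164 to 235 RPKM and to 371 and 242, with 1 of 14 called (Lgals3, 1.74 ± 0.16) and 6 without αKOγKO replicate 2, and the part of these cells in the matrix results was not tested.

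Cell cycle genes were called in αKOγKO without an interaction for most members. Over all tested genes 20.7% were higher in αKOγKO and 6.77% had a higher interaction. αKOγKO was higher for 27 of 30 genes, while 5 had a higher interaction (1 to 3 without any 1 library but αKOγKO replicate 2, and 15 without that one). The median changes were 0.50 in αKOγWT, 0.34 in αHetγKO and 1.45 in αKOγKO, with a median interaction of 0.51 and a median standard error of 0.46, and 2 of the 30 had an interval of the interaction within 1.5-fold. Ccnd2, cyclin D2, was the clearest interaction at 0.91 ± 0.14. The helicase subunits Mcm2 and Mcm3 were at 0.97 ± 0.22 and 0.94 ± 0.21, and each lost its call in at least 3 of 8 fits without a library (highest adjusted p by edgeR 0.077 and 0.081).

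Endothelial markers were lower by interaction in 9 of 15 genes, among them the water channel Aqp1 (-1.12 ± 0.13), the receptor Tie1 (-0.91 ± 0.12) and Fabp4 (-0.63 ± 0.13), and in 2 or 3 without any 1 library of the other genotypes but αKOγWT replicate 2. Fabp4 lost its call without αHetγWT replicate 2 or αHetγKO replicate 1 (highest adjusted p by edgeR 0.0693). The summed level of the endothelial markers was 2392 to 2608 RPKM in the other 6 libraries and 1954 and 1783 for αKOγKO. ERRγ was deleted in cardiomyocytes, and whether these cells were fewer or held less of these RNAs cannot be told apart. Vegfb, an endothelial growth factor that cardiomyocytes secrete, stood at 140 and 149 RPKM for αHetγWT, 135 and 134 for αHetγKO, 147 and 150 for αKOγWT, and 55.3 and 61.7 for αKOγKO. Its interaction of -1.36 ± 0.10 was among 5 lower (9 without αKOγKO replicate 2) and 14 higher interactions in 38 secreted heart factors. Clu, clusterin, was among the higher ones at 1.46 ± 0.11.

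The remaining lists were small. An interaction was called for 16.7% of the p53 targets and 17.4% of the cholesterol genes, near the 17.5% over all tested genes. For the immediate-early genes above the share was 10%, all higher, against 6.77% higher over all tested genes. Among 20 heat shock and mitochondrial protein quality genes, 6 were higher and 6 lower: the inducible Hspa1a had an interaction of 3.27 ± 0.36, and the mitochondrial Trap1 and Afg3l2 -0.95 ± 0.10 and -0.93 ± 0.11. Of 23 cholesterol genes 3 were higher, among them the synthesis enzyme Cyp51 at 0.78 ± 0.19, and 1 was lower, Dhcr7 at -0.81 ± 0.15. Cyp51 lost its call without any 1 library of another genotype than αKOγKO (highest adjusted p by edgeR 0.101), where 1 gene was left higher, and without αKOγKO replicate 1 there were 6 higher and without replicate 2 there were 3 lower. Of 18 p53 targets Plk2 was higher (0.84 ± 0.15) and Gadd45a (-1.56 ± 0.24) and Sesn1 (-0.84 ± 0.15) were lower (4 without αKOγKO replicate 1, and 3 higher without replicate 2). Of 18 ERR receptors and coregulators 3 were higher and 5 lower (3 lower without αHetγWT replicate 1, αKOγWT replicate 1 or either αHetγKO library), and Ppara, the fatty acid receptor, had a lower interaction of -1.12 ± 0.13 beside an αKOγWT change of -0.47 ± 0.09. Of 5 tested skeletal muscle markers 1 was lower, the creatine kinase Ckm at -0.75 ± 0.10, which cardiomyocytes also express. Smooth muscle, epicardial, erythroid and lymphocyte markers had 1 higher (Cnn1, 1.46 ± 0.38) and 1 lower call (Smtn, -1.14 ± 0.11) in all. Cnn1 lost its call without any 1 of the αHetγWT or αHetγKO libraries (highest adjusted p by edgeR 0.116), without αKOγKO replicate 1 there were 4 lower smooth muscle markers, and without αKOγWT replicate 1 there were 4 lower erythroid markers.

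**Figure D4:**
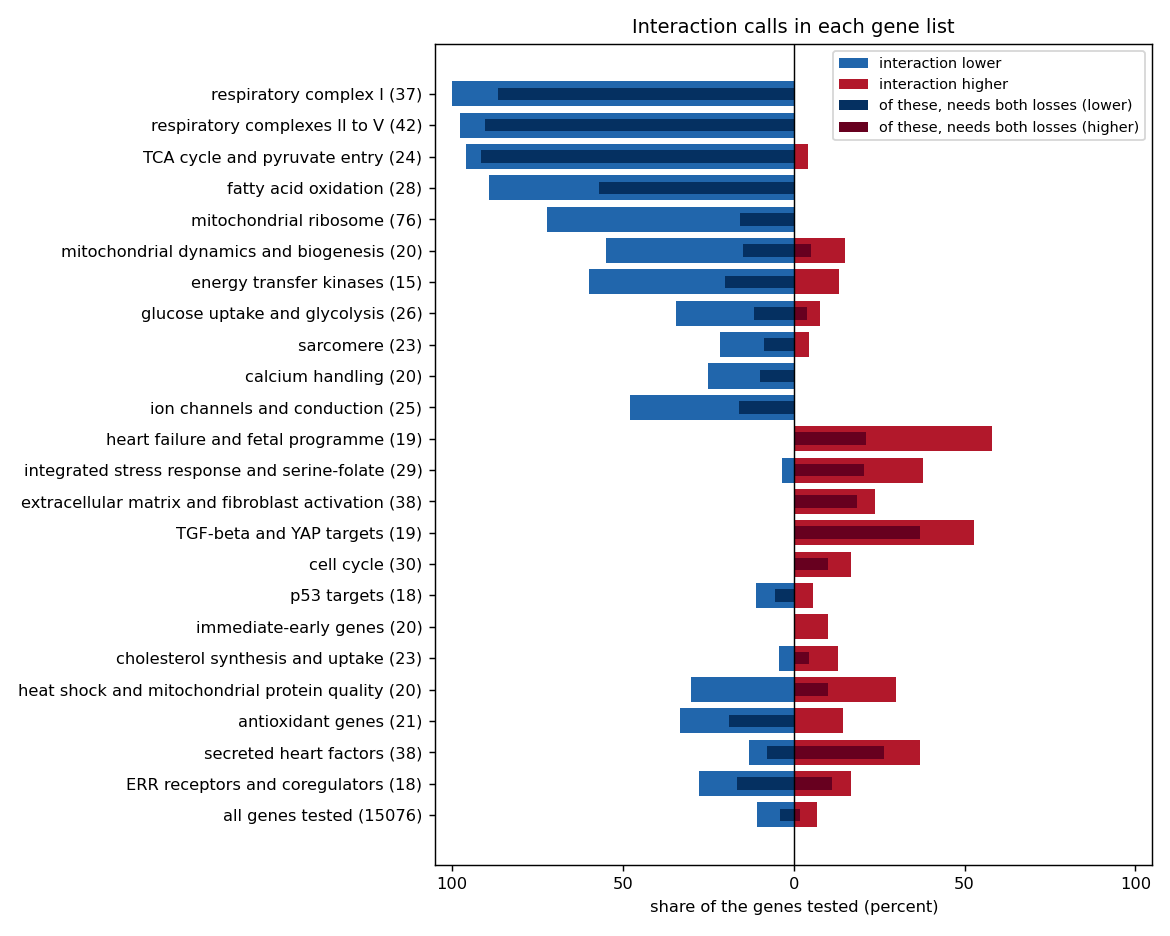
Share of each list's tested genes (x axis, percent; number tested in brackets) with a lower interaction (left, blue) or a higher one (right, red), and within these the share that needed both losses (dark bars). Complex I reaches 100% lower and complexes II to V 97.6%, against 10.7% lower and 6.77% higher over all 15076 tested genes in the bottom bar.

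Genes whose single losses simply added were rare at this precision. The class asked for an αKOγKO change of at least 2-fold, single changes of at least 1.2-fold in the same direction whose sum came within 25% of it, and a 95% interval of the interaction within 1.5-fold either way. It held 5 genes that were higher in αKOγKO and 5 that were lower, 0.0332% of tested genes each way. With an interval of 2-fold it held 48 genes, and with one of 1.3-fold 1 gene.

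The most abundant additive gene was Acta2, smooth muscle α-actin, which is also an early embryonic actin of cardiomyocytes. It stood at 505 and 474 RPKM for αHetγWT, 1143 and 986 for αHetγKO, 1090 and 1019 for αKOγWT, and 2608 and 2012 for αKOγKO. The single losses reached the same level, and the double loss climbed by the same step again, with changes of 1.11 ± 0.13, 1.11 ± 0.13 and 2.12 ± 0.13 and an interaction of -0.10 ± 0.19 (95% interval -0.54 to 0.33). The αKOγWT change was called (edgeR adjusted p = 0.009) and the αHetγKO change was not (0.097). Acta2 is among the smooth muscle markers, whose summed level was 899.8 and 885 RPKM for αHetγWT, 1379 to 1528 in the single losses and 2981 and 2367 for αKOγKO. Acta2 itself made up most of this sum, and Acta2 alone rose by about as much as the sum. Of the 10 smooth muscle and pericyte markers, 4 were called higher and 4 lower in αKOγKO against αHetγWT, with Smtn among the lower.

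Pdlim3, a Z-disc protein that binds α-actinin, stood at 28.6 and 29.2 RPKM for αHetγWT, 43.4 and 46.9 for αHetγKO, 45.1 and 54.3 for αKOγWT, and 87 and 95 for αKOγKO, with an interaction of 0.11 ± 0.14. Its steps were even, as for Acta2. Perp, a desmosome-associated membrane protein, rose with ERRα loss (0.76 ± 0.10, edgeR adjusted p = 0.013), was at 0.36 ± 0.10 with ERRγ loss (not called), and its αKOγKO change was 1.36 ± 0.10. Ociad2, a mitochondrial membrane protein, and Ccn4 completed the rises with αKOγKO changes of 1.5 ± 0.15 and 1.06 ± 0.14.

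Of the falls, Gpr22, an orphan receptor of the heart, had the largest. It stood at 4.66 and 4.39 RPKM for αHetγWT, 2.87 and 2.54 for αHetγKO, 1.67 and 1.24 for αKOγWT, and 0.912 and 0.998 for αKOγKO. The 4 genotypes were ordered without overlap, with -0.76 ± 0.15 for ERRγ loss, -1.63 ± 0.15 for ERRα loss (edgeR adjusted p = 0.0034), -2.37 ± 0.16 for both and an interaction of 0.02 ± 0.22. Lclat1, which remodels cardiolipin, stood at 31.3 and 28.9 RPKM for αHetγWT, 21 and 20.3 for αHetγKO, 20.4 and 18.1 for αKOγWT, and 13.6 and 13.2 for αKOγKO. Its single changes of -0.64 ± 0.08 and -0.56 ± 0.08 were alike, and its interaction was -0.09 ± 0.11. Slc41a3, a magnesium transporter, Anks1, an adaptor protein, and Pdp1, the phosphatase that turns pyruvate dehydrogenase on, had αKOγKO changes of -1.39 ± 0.10, -1.26 ± 0.07 and -1.04 ± 0.10. The 4 single-loss changes of Gpr22, Slc41a3, Lclat1 and Anks1 in αKOγWT were called, and none of the 10 genes was called in αHetγKO.

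**Figure D5:**
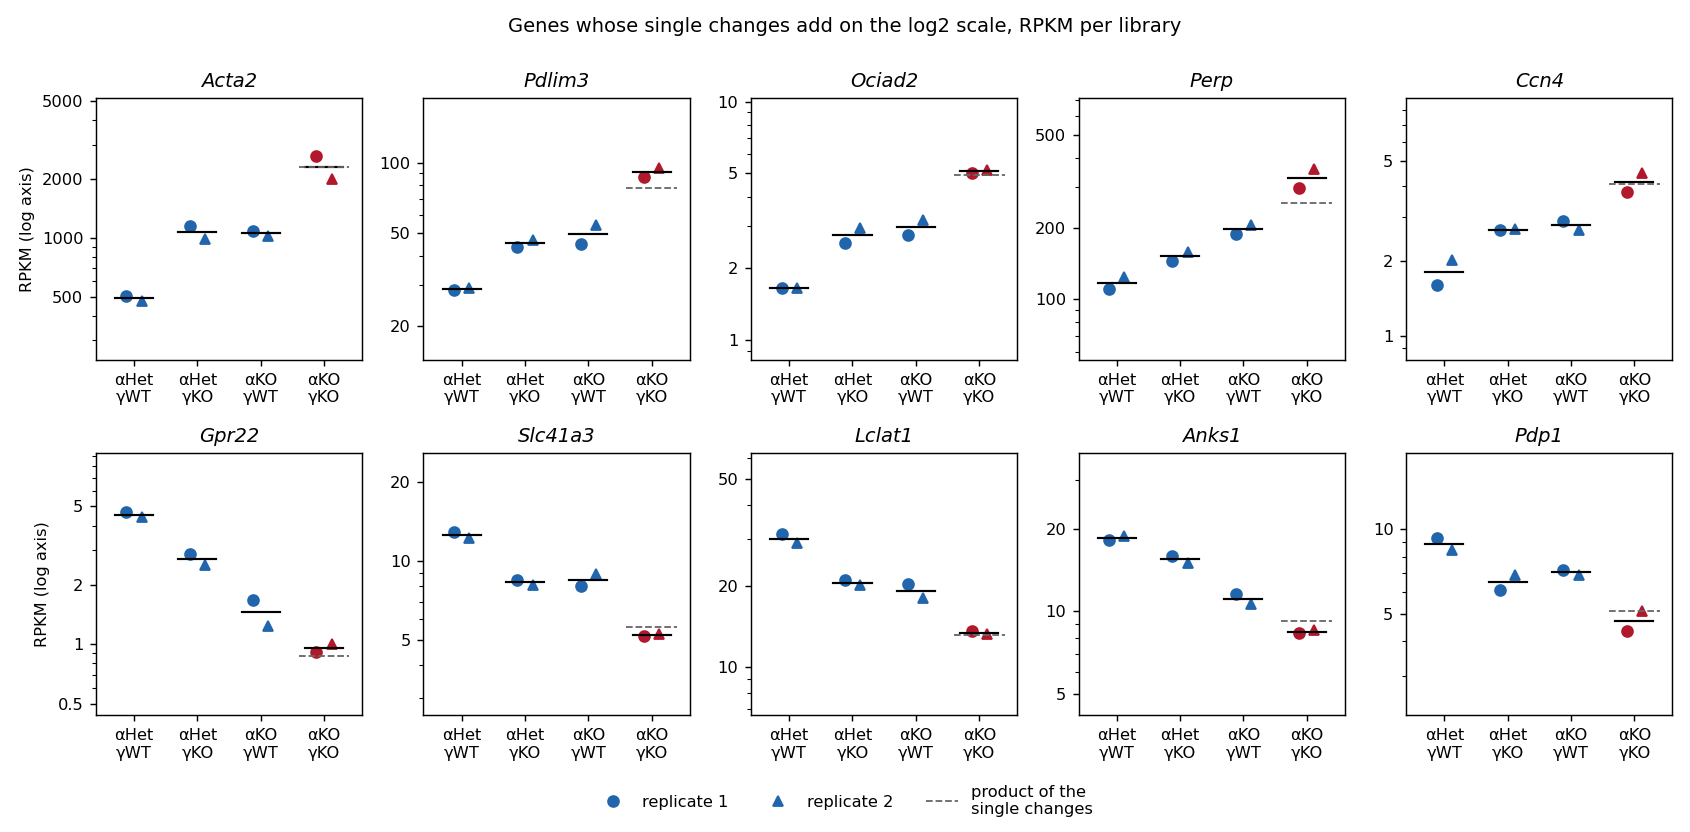
RPKM (y axis, log scale) of the 10 additive genes in the 4 genotypes (x axis), with a circle for replicate 1, a triangle for replicate 2, a bar for the mean and a dashed line at the product of the single changes. The αKOγKO means lie near the dashed lines, and the Acta2 mean steps from 489 RPKM to 1065 and 1054 in the single losses and 2310 in the double.

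Adding on the log2 scale is multiplying on the linear scale. By mean CPM, counts scaled to library size, Acta2, Pdlim3 and Perp in αKOγKO were 1.31, 1.27 and 1.3 times the linear sum of the single changes, while they were 0.93, 1.08 and 1.18 times their product. Anks1 and Pdp1 were 0.98 and 0.95 times the linear sum and 0.84 and 0.85 times the product, so that those falls lay nearer to the linear sum. For Gpr22 the linear sum would lie below 0.

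3 genes met the additive criteria except that 1 of the single losses moved them by less than 1.2-fold in the direction of αKOγKO, or the other way, and 1 of these was higher (0.00663%) and 2 were lower (0.0133%). The 3 genes, counted as set by 1 loss, were Esrra itself, Tnfrsf25, a death-domain receptor, and Eppk1, epiplakin, at under 1 RPKM in each genotype. Eppk1 met the rule only because its αHetγKO change went the other way, so that the class name does not describe it. Eppk1 had a change of 1.88 ± 0.15 in αKOγWT that was called (edgeR adjusted p = 0.0017) and one of -0.66 ± 0.17 in αHetγKO that was not, and the 2 added to its αKOγKO change of 1.21 ± 0.15. Tnfrsf25 stood at 5.26 and 4.64 RPKM for αHetγWT, 4.3 and 4.3 for αHetγKO, 2.42 and 2.96 for αKOγWT, and 2.4 and 2.68 for αKOγKO. ERRα loss alone gave -0.87 ± 0.17, and further loss of ERRγ moved it by -0.21. At this precision few genes could be placed in this class.

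Another 153 genes were less than additive, with a higher interaction in 43 (0.285%) and a lower one in 110 (0.73%). Their interaction had the sign opposite to the summed single changes, so that the class also holds genes whose change reversed in αKOγKO. Among those 110, 51 were called in αKOγWT, where 1.23% of all genes were called, but the class by its rule holds only genes that a single loss moved by at least 1.5-fold. Hk1, hexokinase 1, stood at 73.2 and 75.6 RPKM for αHetγWT, 87.1 and 90.8 for αHetγKO, 142 and 146 for αKOγWT, and 79.6 and 73.8 for αKOγKO. The rise in αKOγWT of 0.96 ± 0.07 (edgeR adjusted p = 0.0011) was not there when ERRγ was lost as well, where the change was -0.08 ± 0.07, and the interaction was -1.28 ± 0.10. Gpi1 and Pfkp, glycolytic enzymes downstream of hexokinase and named after their values were seen, behaved alike, with αKOγWT changes of 0.68 and 0.93 and αKOγKO changes of -0.37 and 0.14. Of 26 glycolysis genes 9 had a lower interaction and 2 a higher one.

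Less than additive genes with a highest genotype mean of at least 1 RPKM were ranked by interaction. The 5 largest interactions all belonged to genes nearly silent in αKOγKO. Each was a reversal: the single changes summed to a rise, and αKOγKO was below αHetγWT. Atp2b2, a plasma membrane calcium pump, stood at 0.787 and 1.03 RPKM for αHetγWT, 1.1 and 1 for αHetγKO, 5.82 and 4.97 for αKOγWT, and 0.0229 and 0.103 for αKOγKO. αKOγWT was 5.94-fold above the reference and αKOγKO 15.6-fold below it, with an interaction of -6.72 ± 0.52 (edgeR adjusted p = 5.5e-05). Wdr72, a WD-repeat protein known from tooth enamel, stood at 1.58 and 1.43 RPKM for αHetγWT, 1.81 and 2.37 for αHetγKO, 4.31 and 3.83 for αKOγWT, and 0.0675 and 0.0625 for αKOγKO, with an interaction of -6.54 ± 0.29. The potassium channel gene Kcnh6 had 176 and 154 reads in αKOγWT and 0 and 1 read in αKOγKO, a 391-fold difference with an exact 95% counting interval of 69.7 to 15500. The uncharacterised 1700003D09Rik had 60 and 65 reads in αKOγWT and none in αKOγKO, at least 49.3-fold lower against a floor of 3 reads over both libraries. Lrat, which esterifies retinol, stood at 2.52 and 2.59 RPKM for αHetγWT, 5.75 and 4.85 for αHetγKO, 4.67 and 2.05 for αKOγWT, and 0.152 and 0.0713 for αKOγKO, so that it was higher with ERRγ loss and not with ERRα loss in both libraries. Cth, cystathionine γ-lyase, was above its reference in both single losses and at 0.0898 and 0.15 RPKM for αKOγKO, with an interaction of -4.32 ± 0.60 (edgeR adjusted p = 0.0015).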

How the data were processed

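RNA-Seq was run by the authors on heart RNA with a TruSeq kit and paired-end reads. The aligner and counter were not given in the sources used here, and the build was mm10 per the labels. The deposited tables hold, per gene and library, counts of uniquely assigned reads and RPKM values that the authors scaled to all counted reads. A deposited coverage score was not used. Counts were tested with edgeR 4.0.16 (TMM factors, the filterByExpr filter at 10 reads, 15 over all libraries, quasi-likelihood F tests over all 8 libraries with 4 residual degrees of freedom, R 4.3.3). Standard errors are those of the fitted contrasts. limma 3.58.1 and DESeq2 1.42.0 gave alternatives.

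Nothing states that the 2 libraries of a genotype came from separate litters, so that p-values measure the spread between pools, and exact intervals cover counting error only. Members and gene lists were chosen with earlier results of these data known. Genes were named as follows: among genes that needed both losses the 10 largest interactions each way with a top genotype mean of at least 1 RPKM, the 6 largest αKOγKO changes each way among additive genes, the 4 largest among genes set by 1 loss, the 5 largest interactions among more and less than additive genes, and up to 3 called genes of each of 23 pathway and 10 marker lists. The same minimum of 1 RPKM held for the ranked additive, 1-loss, more and less than additive genes, but not for the lists. GeneIDs were matched to RefSeq (18612 of 18656). On simulated data the test found 63 of 100 interactions of 2-fold and 96 of 100 of 4-fold, with 8 false calls in 14846 genes. The simulation gave all libraries the same spread, gave the single losses no change and changed only genes above a minimum mean level. Because the real αKOγKO libraries were more variable, these figures do not measure power or false calls in the real data.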

Additional observations from a re-analysis of the deposited data

Results flagged for a closer look

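The effect of ERRγ loss differed between hearts with 1 ERRα copy and hearts with none, by the test of the difference itself, for 1020 genes with a higher and 1620 genes with a lower interaction. Over all tested genes the fitted interactions ran from -9.29 to 10.91. Less than additive genes with a highest genotype mean of at least 1 RPKM were ranked by size. The 5 largest interactions were in genes above the reference in a single loss and nearly silent in αKOγKO. They included -6.72 for Atp2b2, -6.54 for Wdr72 and -6.06 for Lrat. For 1700003D09Rik and Kcnh6 the fitted values of -9.29 and -7.23 rest on 0 and 1 read in αKOγKO, depend on the prior count and are no measure of size.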

How the results depend on the processing

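Of the 118 named genes, 106 had an interaction call, and none of these 106 reversed in the 16 other settings. A minimum mean of 5 RPKM tested only 90 of the 118. Of the 106, 90 kept the call in every setting that tested them. All 16 that lost it did so without a library, and 4 of these also under another setting. Named genes without a call could change sign, such as Gpr22, whose interaction was -0.16 to 0.24 in fits without 1 library. Counts moved by more than 1.5 times in the following. limma on log2(RPKM + 1) gave 1644 higher interactions, 395 lower genes that need both losses, 5 genes set by one loss, 44 more and 82 less than additive genes. DESeq2 gave 6 additive genes and 1 set by one loss, voom with sample weights 0 set by one loss, and a minimum mean of 5 RPKM 1 set by one loss, 48 more and 49 less than additive. An interaction of at least 2-fold left 334 higher and 697 lower genes, single changes under 1.2-fold left 158 higher genes that need both losses, and the interval bounds of 2-fold and 1.3-fold gave 48 and 1 additive genes and 10 and 0 set by one loss. Fits that left out 1 library ranged from 336 to 1653 higher and 927 to 2216 lower interactions, 145 to 501 higher and 491 to 738 lower genes that need both losses, 4 to 15 additive genes, 0 to 4 set by one loss, 45 to 125 more and 84 to 181 less than additive. The extremes were reached without αHetγKO replicate 1 (lowest interaction counts) and αKOγKO replicate 2 (highest), and 215 of the 277 higher and 554 of the 608 lower genes that need both losses were shared without αKOγKO replicate 1, and 259 and 569 without replicate 2. Where a genotype was left with 1 library, it was assumed to vary like the others. Same-numbered libraries did not deviate together (correlations of -0.183 to 0.088), so that numbers do not pair samples; with a replicate block 966 interactions were higher and 1606 lower. The cause of these differences was not tested. The additive class by its rule holds only genes with a small standard error of the interaction, and whether more depth or more libraries would add to it was not tested.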
